A study of Mus musculus with 12 samples.

Results

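This account is about 5 genes of antigen presentation in mouse fat: H2-Aa, H2-Ab1 and H2-Eb1, which encode chains of the major histocompatibility complex (MHC) class II molecules, Cd74, which encodes their invariant chain, and H2-DMa, which encodes a chain of the peptide-loading factor. The members are all probe sets of the array whose single gene symbol is 1 of these 5. That gave 6 probe sets, 2 of them for H2-DMa, among 12422 probe sets and 8251 named genes. One of the H2-DMa probe sets was too dim to be tested, which left 5 tested probe sets, 1 a gene, among 8695.

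The arrays came from male C57BL/6 mice, an inbred strain, aged 42 to 49 days, without any transgene or treatment named in the labels. Fat of 10 mice was pooled by depot, flank fat for the subcutaneous and epididymal fat for the intraabdominal depot, then treated for 45 min with 1 mg/ml of collagenase. The 4 groups of 3 arrays were subcutaneous adipocytes, intraabdominal adipocytes, subcutaneous stromo-vascular cells and intraabdominal stromo-vascular cells. Adipocytes are the floating cells, taken for RNA after washing. The stromo-vascular cells are the pellet, a mixture of preadipocytes and other cells, which was freed of red cells, plated at 60000 cells per cm2, kept for 16 h and washed before RNA was taken, so the fraction and the culture step cannot be told apart. Whether the 3 arrays of a group came from separate pools is not stated, and p-values then measure only the spread between these arrays.

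MHC class II molecules are pairs of an alpha and a beta chain that show peptides from the endosome to helper T cells. They are assembled on the invariant chain, which fills the groove until proteases trim it away and H2-DM exchanges its last fragment for a peptide. Dendritic cells, B cells and macrophages carry them at rest, and interferon gamma, acting through the coactivator CIITA, induces them in many other cells. In fat, macrophages and dendritic cells of the stroma are the usual carriers, and adipocytes have been described to express them as well. C57BL/6 mice carry a deletion in the promoter of H2-Ea, the alpha chain gene that would pair with H2-Eb1.

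Class II genes share a promoter module in which an X box, bound by the RFX complex, precedes a Y box, bound by NF-Y. The 250 bases before the start of H2-Aa and H2-Eb1 are shown because these genes had the clearest difference between fractions and both windows hold the module. They are RefSeq sequences on build GRCm38.p6, written 5′ to 3′ on the strand of the gene, with the matched X box core CTNGNAAC and Y box core CTGATTGG in capitals. The H2-Aa window is chr17:34287824-34288073 on the minus strand, and the H2-Eb1 window is chr17:34305617-34305866 on the plus strand.
H2-Aa: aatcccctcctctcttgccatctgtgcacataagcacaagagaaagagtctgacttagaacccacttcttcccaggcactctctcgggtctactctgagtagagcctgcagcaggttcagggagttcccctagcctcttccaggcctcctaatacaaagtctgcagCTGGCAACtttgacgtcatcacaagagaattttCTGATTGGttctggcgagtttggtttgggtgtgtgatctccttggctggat
H2-Eb1: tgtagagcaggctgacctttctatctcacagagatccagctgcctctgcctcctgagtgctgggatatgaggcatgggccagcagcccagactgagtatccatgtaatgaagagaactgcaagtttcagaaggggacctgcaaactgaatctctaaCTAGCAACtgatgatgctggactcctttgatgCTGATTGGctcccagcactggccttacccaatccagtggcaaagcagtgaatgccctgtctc
In H2-Aa the X box letters were CTGGCAAC at bases 167 to 174 of the window, 25 bases before the Y box letters. In H2-Eb1 they were CTAGCAAC at bases 157 to 164, with a gap of 24 bases. The motif letters were chosen with these windows in view and do not overlap each other. Of each of 32851 promoter windows of 300 bases, only the 250 bases before the start were searched, on both strands. Of these windows 10.9% held the X box letters and 3.83% the Y box letters. In 15 windows, or 0.0457%, both stood in one orientation with a gap of 10 to 50 bases. These include the H2-Aa and H2-Eb1 windows, and Gm33304 and Mark3 each enter with more than 1 window. As the letters were chosen with the H2-Aa and H2-Eb1 windows in view, this share is no test of their matches. The window of H2-DMb1, whose product pairs with that of H2-DMa, held the X box letters at bases 154 to 161 but no Y box letters. Neither of the 2 H2-DMa windows searched, chr17:34122582-34122831 and chr17:34125268-34125517, held either motif. Both lie inside the span given for that gene, 34119693 to 34139101, so the bases before that span were not searched. A match describes letters only, and binding was not measured here.

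All arrays had been scaled to a common level, with trimmed means within a ratio of 1.00017. All 10 adipocyte marker genes were higher in adipocytes in both depots, while 9 and 10 of 11 fibroblast and preadipocyte markers were lower there in the subcutaneous and the intraabdominal depot. Of all tested probe sets 23.5% and 22.4% were higher in adipocytes and 29.4% and 29% lower in these depots. The 3′ to 5′ ratio of the actin control probe sets, a measure of RNA integrity that rises as transcripts are cut short, was 2.35 to 3.10 in subcutaneous and 1.71 to 2.24 in intraabdominal adipocytes. It was 1.20 to 1.24 and 1.11 to 1.21 in the corresponding stromo-vascular groups, so it moved with the fraction. Signals below are the deposited MAS5 intensities in arbitrary units, differences are of log2(signal + 40.2), and folds are taken from the same scale and so come out too small where a gene is dim. A difference was called when its limma p-value, adjusted by the Benjamini-Hochberg method over all 8695 probe sets, was under 0.05. Levels of different probe sets depend on their probes and were not set against each other.

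The first question was how the genes differed between fat cells and stromo-vascular cells of the same depot. H2-Aa, H2-Eb1 and Cd74 were higher in adipocytes by 9.22-fold to 25.4-fold in the 2 depots, with no overlap between the groups. H2-DMa was higher by 1.91-fold in the intraabdominal depot, and H2-Ab1 was called in neither. Thus 3 of 5 members were called higher in the subcutaneous depot, where 23.5% of all tested probe sets were, and 4 of 5 in the intraabdominal depot, where 22.4% were. None was called lower, against 29.4% and 29% of all probe sets. The median difference over all tested probe sets was -0.04 and -0.11. In bulk samples fewer cells of a type and less RNA per cell cannot be told apart.

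H2-Aa encodes the alpha chain of I-A, the class II molecule that C57BL/6 mice express. Its signal was 3026, 1803 and 1622 on the subcutaneous adipocyte arrays and 3999, 2729 and 1482 on the intraabdominal ones. On the stromo-vascular arrays it was 72.3, 69.3 and 83.4 in the subcutaneous and 57.6, 58.8 and 66.6 in the intraabdominal group. Every adipocyte array stood above every stromo-vascular array, and the stromo-vascular values lay under 173, the signal of the filter on mean level, so the probe set was tested because of its level in adipocytes. The log2 difference was 4.20 ± 0.34 (SE, n = 3 against 3), an 18.3-fold change (limma adjusted p = 8.23e-08), in the subcutaneous depot. In the intraabdominal depot it was 4.67 ± 0.34, or 25.4-fold (limma adjusted p = 2.56e-08). Over the alternatives, the amount added before the logarithm among them, the values ran from 3.24 to 4.77 and from 3.61 to 5.35, so the folds of this probe set are approximate.

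H2-Eb1 encodes the beta chain of I-E, the second class II molecule. Its signal was 2606, 1899 and 1624 in subcutaneous adipocytes and 2482, 1688 and 2243 in intraabdominal adipocytes. The stromo-vascular arrays gave 207, 186 and 155 in the subcutaneous and 117, 106 and 129 in the intraabdominal group. All intraabdominal values and the lowest subcutaneous one lay under 173, the signal of the filter on mean level. The fractions were again fully apart, and the adipocyte arrays of H2-Eb1 varied less than those of H2-Aa, with an SD of 507 on a mean of 2043 in the subcutaneous group. Adipocytes were higher by a log2 difference of 3.20 ± 0.24 (SE), or 9.22-fold (limma adjusted p = 3.96e-08), in the subcutaneous depot and by 3.77 ± 0.24, or 13.7-fold (limma adjusted p = 6.25e-09), in the intraabdominal depot, where the alternatives ran from 3.03 to 4.16. The possible partner H2-Ea was dim in all groups, with means of 155 ± 138 (SD, n = 3) and 119 ± 16.2 in adipocytes and 113 ± 25.5 and 87.1 ± 46.9 in stromo-vascular cells of the subcutaneous and the intraabdominal depot, and was under the filter.

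Cd74, the invariant chain, is the chaperone of both class II molecules. Its signal was 8841, 3577 and 3266 in subcutaneous adipocytes and 13106, 5848 and 3834 in intraabdominal adipocytes. In stromo-vascular cells it was 428, 422 and 288 in the subcutaneous and 461, 227 and 235 in the intraabdominal group. The lowest adipocyte array was therefore far above the highest stromo-vascular one, although 1 array of each adipocyte group was much brighter than the others of its group. The log2 difference was 3.51 ± 0.43 (SE), or 11.4-fold (limma adjusted p = 6.96e-06), in the subcutaneous depot and 4.33 ± 0.43, or 20.1-fold (limma adjusted p = 7.82e-07), in the intraabdominal depot. With the actin ratio as a covariate the subcutaneous difference was 4.21 and was no longer called (limma adjusted p = 0.0951, the highest of its alternatives, which began at 1.59e-07).

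H2-DMa encodes the alpha chain of H2-DM. Its brighter probe set read 1466, 1076 and 1221 in subcutaneous adipocytes and 1836, 1315 and 949 in intraabdominal adipocytes. It read 1099, 709 and 1206 in subcutaneous and 601, 796 and 635 in intraabdominal stromo-vascular cells. In the subcutaneous depot the fractions overlapped, with a log2 difference of 0.33 ± 0.26 (SE, limma adjusted p = 0.296). In the intraabdominal depot every adipocyte array was above every stromo-vascular array, with a difference of 0.93 ± 0.26, or 1.91-fold (limma adjusted p = 0.0068). With the actin ratio as a covariate that difference was 1.55 and was not called (limma adjusted p = 0.0726, the highest of its alternatives, which began at 0.0019). The dim probe set of H2-DMa read 110 to 240 over the 12 arrays. It did not follow the brighter one, since all its intraabdominal adipocyte arrays, at 110, 158 and 152, were under the stromo-vascular arrays, at 171, 170 and 159.

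H2-Ab1 encodes the beta chain that pairs with H2-Aa in I-A. Its signal was 1004, 220 and 650 in subcutaneous adipocytes and 1617, 517 and 674 in intraabdominal adipocytes. It was 645, 595 and 1021 in subcutaneous and 573, 920 and 772 in intraabdominal stromo-vascular cells. All groups overlapped, and the spread among adipocyte arrays was wide, as it was for Cd74, with an SD of 393 on a mean of 624 in the subcutaneous and 595 on 936 in the intraabdominal group. The log2 difference between fractions was -0.43 (95% interval -1.44 to 0.57, limma adjusted p = 0.464) in the subcutaneous and 0.15 (-0.85 to 1.16, limma adjusted p = 0.81) in the intraabdominal depot. Both intervals lie below the values of H2-Aa. With the actin ratio as a covariate the subcutaneous difference turned to 2.37 (limma adjusted p = 0.333), and without both adipocyte arrays 1 the intraabdominal one turned to -0.31, also not called.

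**Figure D1:**
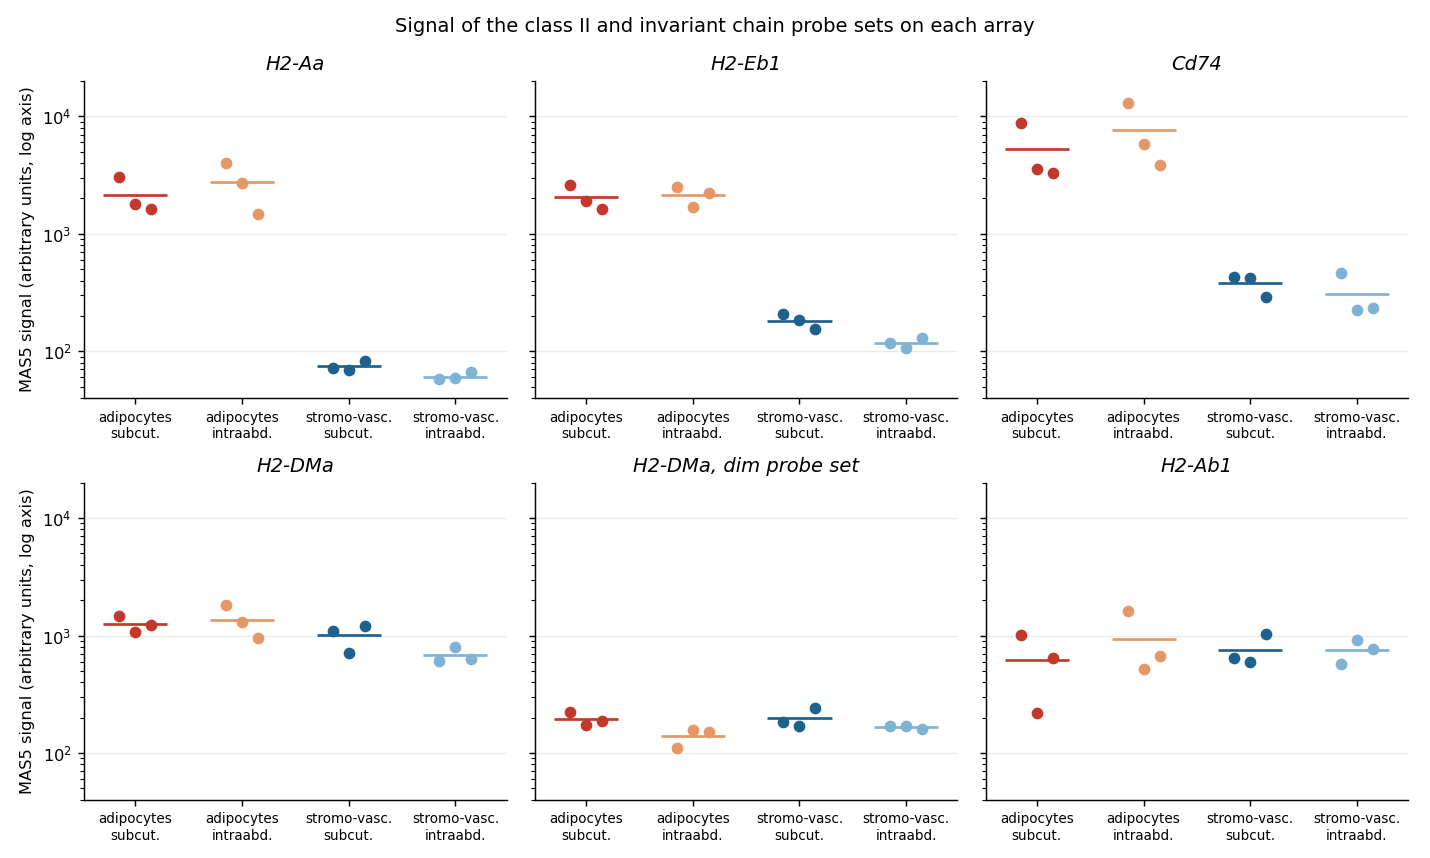
MAS5 signal in arbitrary units, on a log axis, of the 6 member probe sets on each of the 12 arrays; points are arrays and lines are group means. The adipocyte points of H2-Aa, H2-Eb1 and Cd74 lie above all stromo-vascular points, while those of H2-Ab1 overlap them.

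The partner chains of I-A thus read differently on this array, and this was described by the log2 ratio of (signal + 40.2) of each pair of members. Where H2-Aa is dim this ratio depends on the added 40.2. These pairs were compared after their values were seen, so the permutation p-values below describe these arrays and are no independent test. The permutation moved all 12 arrays between the fractions without regard to depot. It takes each array as a separate replicate, which the labels do not state. Between fractions, with the 6 adipocyte arrays against the 6 stromo-vascular arrays, the log2 ratio of H2-Ab1 to H2-Aa differed by -4.57 (SD 0.69 among adipocyte and 0.30 among stromo-vascular arrays). The exact 2-sided permutation p was 0.00216, the smallest that 6 against 6 can give, or 0.00361 after adjustment over the 10 pairs. The ratio of H2-Ab1 to H2-Eb1 differed by -3.63 and that of Cd74 to H2-Ab1 by 4.06, both with the same exact p. H2-DMa against H2-Aa, H2-Eb1 and Cd74 gave differences of -3.80, -2.86 and, for Cd74 over H2-DMa, 3.29, again with the same exact p. Cd74 against H2-Eb1 differed by 0.43 (exact permutation p = 0.156) and Cd74 against H2-Aa by -0.51 (exact permutation p = 0.0455, adjusted 0.0505), while H2-Eb1 against H2-Aa differed by -0.94 (exact permutation p = 0.00433, adjusted 0.00618). H2-DMa against H2-Ab1, the members with little or no difference between fractions, differed by 0.77 (exact permutation p = 0.0281, adjusted 0.0352). Over the 12 arrays the log2 signals of H2-Aa, H2-Eb1 and Cd74 correlated with r = 0.97 to 0.99 and H2-Ab1 correlated with H2-Aa at -0.01, a description in which the fraction is shared by all arrays of a kind. Among the 6 adipocyte arrays alone H2-Ab1 and H2-Aa correlated at 0.64, and Cd74 and H2-Aa at 0.96.

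The second question was whether the depots differed. No member was called between depots, in adipocytes (8.13% of all probe sets were called) or in stromo-vascular cells (12.9%), and 0 of 5 had an unadjusted limma p under 0.05 in either. Of the 707 probe sets called in adipocytes 48.8% were higher in the subcutaneous depot, and with arrays centred on their median 17.95% of 958 were, as that scaling moved the median of all probe sets by -0.22. In adipocytes all 5 log2 differences, subcutaneous minus intraabdominal, were negative, from -0.61 for H2-Ab1 to -0.07 for H2-Eb1, and the groups overlapped for every member. Leaving out 1 array turned the sign for H2-Aa, H2-Eb1 and H2-DMa. The 95% intervals were -1.01 to 0.43 for H2-Aa, -0.59 to 0.44 for H2-Eb1, -1.42 to 0.42 for Cd74, -0.63 to 0.47 for H2-DMa and -1.61 to 0.40 for H2-Ab1, so differences of 2-fold, a log2 of 1, remain within the intervals of H2-Aa, Cd74 and H2-Ab1.

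In stromo-vascular cells H2-Eb1 differed by 0.49 ± 0.24 (SE, limma adjusted p = 0.221), with all 3 subcutaneous arrays above all 3 intraabdominal arrays. H2-Aa showed the same order at low signal, with a difference of 0.19 (limma adjusted p = 0.807). The share of all probe sets with groups apart in this way was not computed, so no depot difference is read from this order. H2-DMa differed by 0.52 (limma adjusted p = 0.23), Cd74 by 0.32 (limma adjusted p = 0.728) and H2-Ab1 by -0.02 (limma adjusted p = 0.991), with overlapping groups. The interaction, in which the depot difference of the stromo-vascular cells is subtracted from that of the adipocytes, was negative for all 5 members, from -0.82 for Cd74 to -0.47 for H2-Aa. None was called, where 8.43% of probe sets were, and 0 of 5 had an unadjusted limma p under 0.05. Of the interaction calls 46.2% were positive, and 33.0% with median centring.

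**Figure D2:**
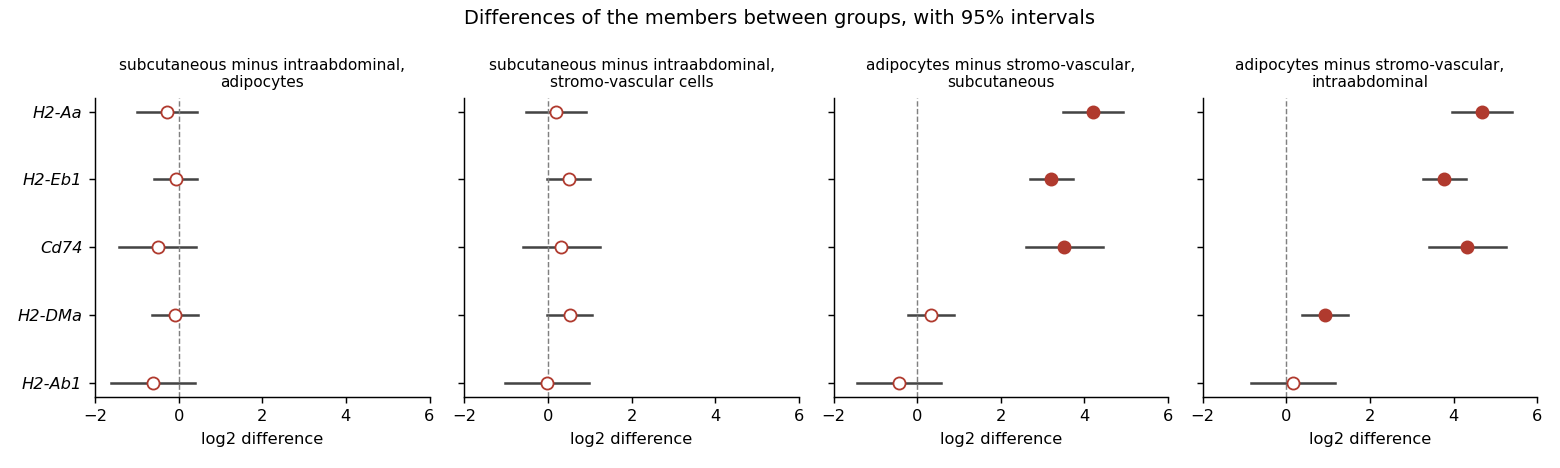
Log2 difference of each member in the 4 comparisons, with 95% intervals from limma; filled points were called at an adjusted p under 0.05 and open points were not. The filled points are H2-Aa, H2-Eb1 and Cd74 in both fraction comparisons and H2-DMa in the intraabdominal one, at 0.93.

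The order of the group means was intraabdominal adipocytes, subcutaneous adipocytes, subcutaneous stromo-vascular cells and intraabdominal stromo-vascular cells for H2-Aa, H2-Eb1, Cd74 and the brighter H2-DMa probe set. For the first 3 of these the step between the fractions was called and the depot steps were not. For H2-DMa no step between neighbours was called. For H2-Ab1 intraabdominal adipocytes were highest, at a mean of 936, and subcutaneous adipocytes lowest, at 624, and no neighbours differed beyond their spread.

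Within each adipocyte group the same array of the 3 was the highest for all 5 genes: array 1, in 10 of 10 cases. It stood at 1.69 and 1.73 times the group mean for Cd74 in the subcutaneous and intraabdominal groups, at 1.41 and 1.46 for H2-Aa, 1.61 and 1.73 for H2-Ab1, 1.28 and 1.16 for H2-Eb1 and 1.17 and 1.34 for H2-DMa. Over all tested probe sets array 1 was the highest in both adipocyte groups for 10.3%. Among probe sets of pan-leukocyte markers it was highest in both for 7 of 12 and among macrophage markers for 8 of 23, while it was for 3 of 12 dendritic cell and 3 of 15 B cell marker probe sets. It also was for 2 of 4 T and NK cell marker probe sets, for 4 of 11 of other class II and peptide loading genes and for 2 of 12 of adipocyte markers. The part of any cell type in the spread was not tested. Without both of these arrays, an alternative added after the data were seen, the differences between fractions were 3.93 and 4.34 for H2-Aa, 3.02 and 3.66 for H2-Eb1 and 3.06 and 3.84 for Cd74 in the subcutaneous and intraabdominal depots, and the intraabdominal difference of H2-DMa was 0.70. All of these were still called.

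**Figure D3:**
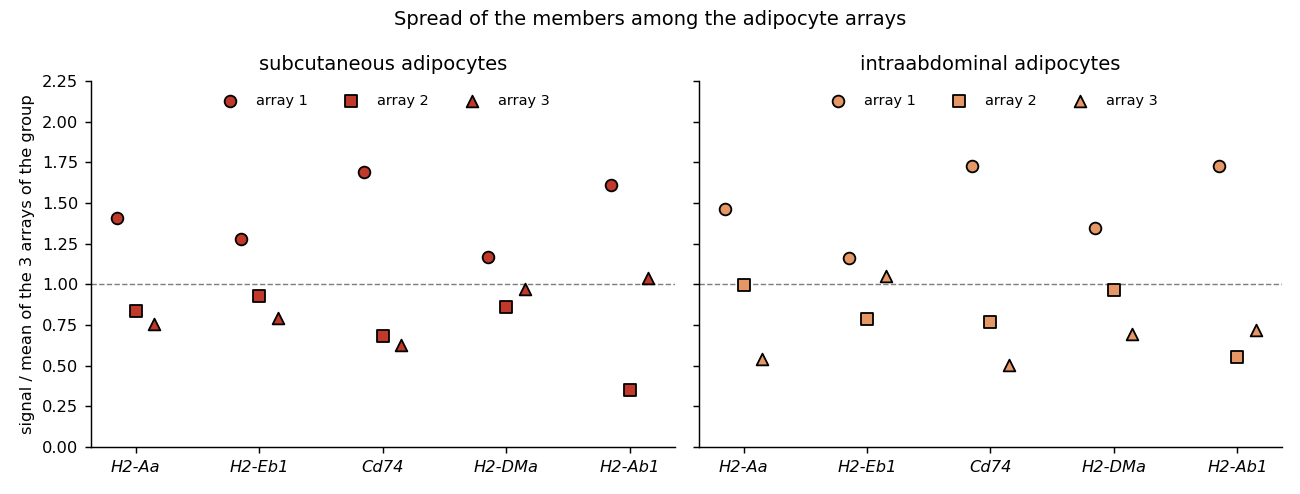
Signal of each member on each adipocyte array, divided by the mean of the 3 arrays of its group (no unit); symbols mark the array number. Array 1 is the highest for every gene in both groups, up to 1.73 for Cd74 and H2-Ab1 in the intraabdominal group.

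The other genes of class II assembly and loading were mostly lower in adipocytes. Of 12 on the array 8 were tested, and 5 were lower in adipocytes in both depots, where 29.4% and 29% of all probe sets were. In the subcutaneous depot 1 was higher and in the intraabdominal depot 2, beside 23.5% and 22.4% of all probe sets. Without both adipocyte arrays 1 the same number were lower, and 2 and 3 were higher. The median log2 difference of the list was -1.50 and -1.21, beside -0.04 and -0.11 over all tested genes. Ctss, cathepsin S, which cuts the invariant chain, was lower by 4.04-fold in the subcutaneous and 8.91-fold in the intraabdominal depot, with log2 differences of -2.02 ± 0.30 and -3.16 ± 0.30 (SE). Lgmn, the asparagine endopeptidase legumain, was lower by 10.1-fold and 6.37-fold. Ctsl, cathepsin L, was at -1.55 and -1.18, and Ifi30, the interferon-induced thiol reductase of the endosome, at -1.99 and -1.94. Ctsd, cathepsin D, rose by 1.01 and 0.90.

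H2-DMb1, the beta chain that pairs with H2-DMa, was lower in adipocytes by -1.46 ± 0.48 (SE, limma adjusted p = 0.0195) in the subcutaneous depot and by -1.24 ± 0.48 (limma adjusted p = 0.0431) in the intraabdominal one. Its call was lost when any of 3 arrays was left out in the subcutaneous depot, and with the actin covariate. In the intraabdominal depot it was lost when any of 7 arrays was left out and under 7 other settings, including median centring. Its adjusted p ranged from 0.00222 to 0.602 and from 0.0103 to 0.445 over the alternatives. In stromo-vascular cells Ctss was lower in the subcutaneous depot by -1.31 ± 0.30 (SE, limma adjusted p = 0.00931) and Lgmn higher by 1.08 ± 0.17 (limma adjusted p = 0.000441).

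Of the 10 transcription factors of class II genes, all tested, 3 were higher in adipocytes in both depots, while 1 was lower in the subcutaneous and 3 in the intraabdominal depot. These counts are near the shares of all probe sets, of which 23.5% and 22.4% were called higher and 29.4% and 29% lower. Irf8, an interferon regulatory factor of myeloid and B cells, rose by 7.11-fold in the subcutaneous and by 5.34-fold in the intraabdominal depot. Irf4, a related factor, had means of 1613 ± 311 (SD, n = 3) and 1390 ± 1310 in subcutaneous and intraabdominal adipocytes, against 33.7 ± 3.39 and 21.98 ± 7.20 in stromo-vascular cells. The latter lie under the added 40.2, so the probe set was tested because of its level in adipocytes and the size of its difference is not fixed. That difference was 4.47 and 4.15, from 3.17 to 5.53 and from 2.77 to 5.56 over the alternatives. Nfya, a subunit of the Y box factor, was lower in both depots, by 2.05-fold in the subcutaneous one. Ciita, the master coactivator, was not called, at -0.21 (limma adjusted p = 0.744) and 0.62 (limma adjusted p = 0.321), and its groups overlapped, with means of 460 ± 298 (SD, n = 3) and 359 ± 106 in adipocytes and 471 ± 64.3 and 251 ± 160 in stromo-vascular cells of the subcutaneous and the intraabdominal depot. The direction of the Ciita difference turned with 1 array left out in the subcutaneous depot and with the actin covariate in the intraabdominal depot.

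Of 3 tested co-stimulatory genes 1 was lower in adipocytes in the subcutaneous and 2 in the intraabdominal depot, too few to set against the shares of all probe sets. Icam1, an adhesion molecule that binds T cells, was lower by 6.48-fold in the subcutaneous and 1.85-fold in the intraabdominal depot. The intraabdominal call of Icam1 was lost without intraabdominal adipocyte array 1, at -0.72 (limma adjusted p = 0.0622, the highest of its alternatives, which began at 0.000845).

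Genes of the interferon gamma axis, which induces class II, were mostly higher in adipocytes. Of 15 tested 9 were higher and 3 lower in the subcutaneous depot, and 8 higher and 4 lower in the intraabdominal depot. Of all probe sets 23.5% and 22.4% were called higher and 29.4% and 29% lower. Cxcl9, a chemokine induced by interferon gamma, had a mean of 3844 ± 680 (SD, n = 3) in subcutaneous adipocytes against 21.4 ± 4.87 in the stromo-vascular cells, a log2 difference of 5.97 ± 0.25 (SE). Cxcl10 differed by 5.18 and Irf1, an early interferon-induced transcription factor, by 3.86 in the same depot. In the intraabdominal depot the differences were 5.51 for Cxcl9, 5.28 for Cxcl10 and 3.52 for Irf1. Cxcl9 and Cxcl10 were tested because of their level in adipocytes, as their stromo-vascular means, at most 74.4, lay under the filter. Over the alternatives the difference ran from 4.44 to 7.43 and from 3.96 to 7.14 for Cxcl9 and from 4.12 to 5.93 and from 3.85 to 6.58 for Cxcl10 in the subcutaneous and intraabdominal depots. Gbp2, a guanylate-binding protein of the same response, rose by 4.56-fold and 3.18-fold. Ifngr2, a chain of the interferon gamma receptor, was lower by 3.86-fold and 3.43-fold in adipocytes. Ifng itself was under the filter, with a mean of 51.8 ± 43.8 (SD, n = 3) in subcutaneous adipocytes and of 25.6 or less in the other groups.

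The genes of class I presentation, the pathway for cytosolic peptides, were also mostly higher in adipocytes, 9 of 14 tested in each depot, with 3 lower, beside the same 23.5% and 22.4% called higher and 29.4% and 29% called lower of all probe sets. H2-K1 and H2-D1, the classical class I heavy chains, rose by 1.63-fold and 1.74-fold in subcutaneous and by 2.59-fold and 2.91-fold in intraabdominal adipocytes. Between depots 6 of 14 class I genes were higher in subcutaneous adipocytes and 7 of 14 in subcutaneous stromo-vascular cells, where 3.97% and 6.49% of all probe sets were. None was lower, against 4.16% and 6.45% of all probe sets. The first count was 4 with median centring, 2 with the actin covariate and 3 without both adipocyte arrays 1. H2-Q10, a class I gene, was higher by 4.11-fold in subcutaneous adipocytes and 4.70-fold in subcutaneous stromo-vascular cells, and Psmb8, a subunit of the immunoproteasome, by 2.76-fold and 1.79-fold. Probe sets of class I heavy chains can share sequence with several genes of the family, so their assignment to one gene is uncertain. Whether the class I and class II genes differ in their depot response was not tested.

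The actin ratio moved with the fraction, and the lists above were read again with it as a covariate. With it the calls over all 8695 probe sets fell from 4595 to 1058 in the subcutaneous and from 4462 to 2173 in the intraabdominal depot. Of the 10 adipocyte markers 7 and 10 stayed called. The counts below are therefore to be read beside that general loss. In the subcutaneous depot 1 class II loading gene was then called, as lower, and no transcription factor was called by limma, with 1 of 10 at an unadjusted p under 0.05. In the same depot 3 interferon axis genes were higher and 1 lower, and 1 class I gene was higher and 2 lower. In the intraabdominal depot 3 loading genes were lower, 2 transcription factors higher, 4 interferon axis genes higher and 3 lower, and 7 class I genes higher and 2 lower. Ctss turned to 0.19 and Lyz2 to 0.36 in the subcutaneous depot, while Lgmn, Icam1, Cxcl9, Cxcl10 and Irf1 stayed called there. Of the members H2-Aa and H2-Eb1 stayed called in both depots, at 4.62 and 3.04 in the subcutaneous depot (limma adjusted p = 0.0213 and 0.0303).

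**Figure D4:**
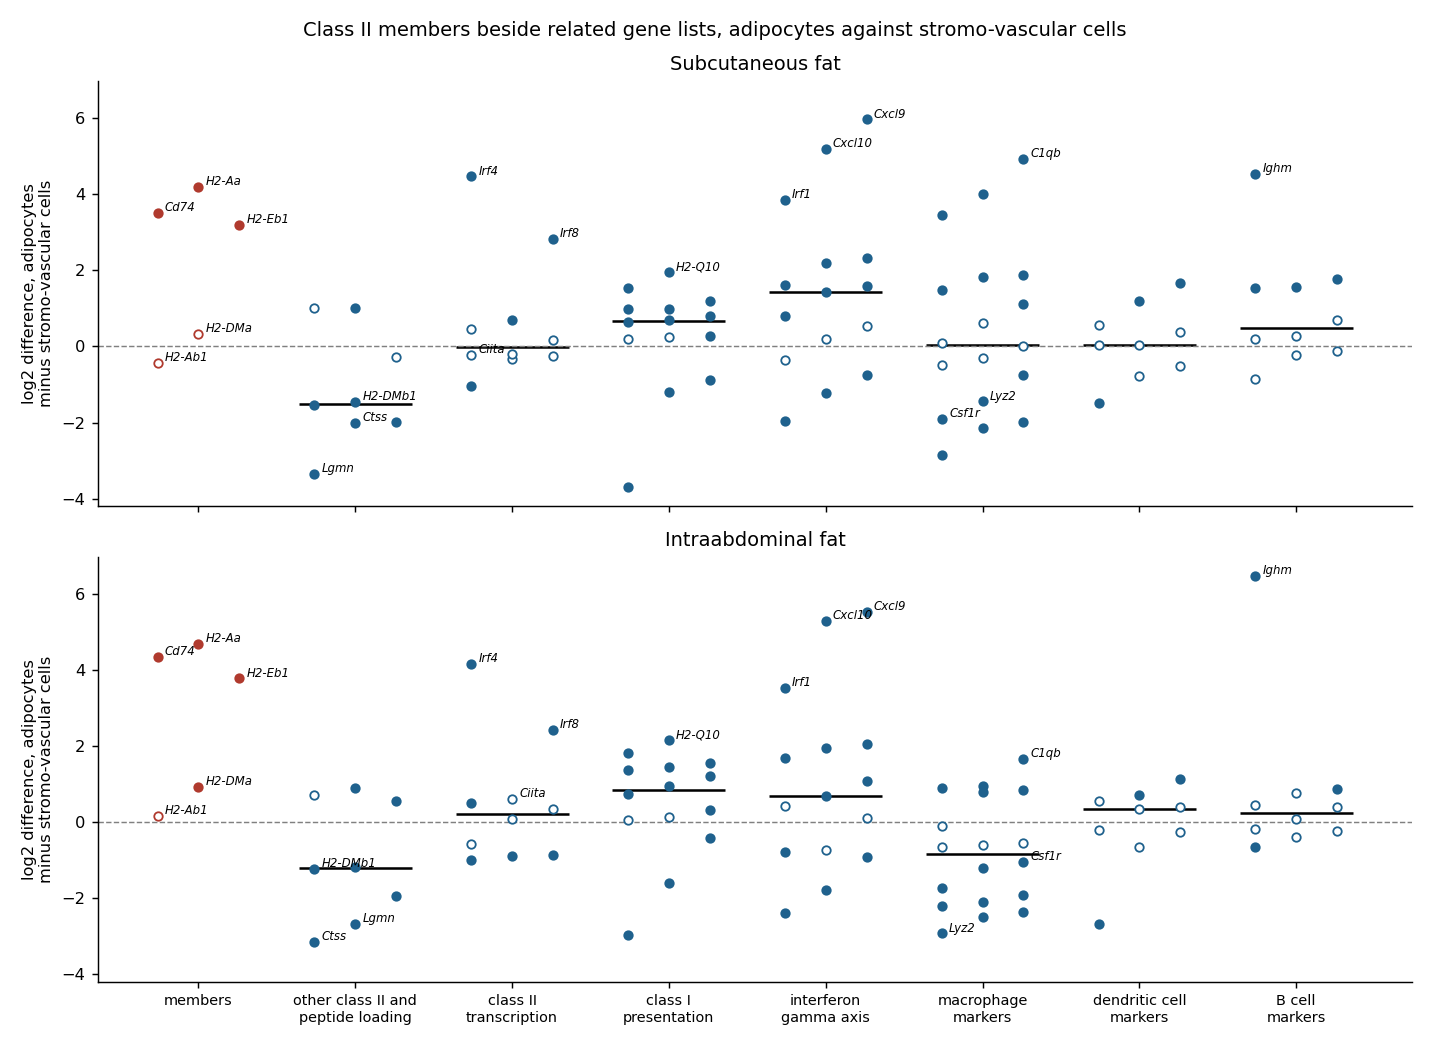
Log2 difference, adipocytes minus stromo-vascular cells, of the members and of 7 gene lists in the subcutaneous (top) and intraabdominal (bottom) depot; each point is a gene, filled when called, and lines are medians of the 7 lists. The class II loading genes lie mostly below 0, with a median of -1.50 and -1.21, while H2-Aa, H2-Eb1 and Cd74 lie above 3.

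Markers of the cells that usually carry class II were read beside the members. The summed signal of 22 macrophage markers was 30305 to 42502 in subcutaneous and 25778 to 36887 in intraabdominal adipocytes, against 41229 to 41798 and 45401 to 51764 in the stromo-vascular cells. In the subcutaneous depot 7 of the 18 tested were higher in adipocytes and 6 lower, and in the intraabdominal depot 5 and 9. Of all probe sets 23.5% and 22.4% were called higher and 29.4% and 29% lower. The 6 lower in the subcutaneous and the 5 higher in the intraabdominal depot are near these shares. With the actin covariate 6 were higher and 1 lower in the subcutaneous depot, where the median of the list moved from 0.05 to 1.31, and 3 were higher and 4 lower in the intraabdominal depot. Without both adipocyte arrays 1 the counts were 7 and 5 and 3 and 10. Lyz2, lysozyme of myeloid cells, was lower in adipocytes by 2.72-fold and 7.61-fold, and Csf1r, the receptor of macrophage colony-stimulating factor, by 3.72-fold and 2.06-fold. With the actin covariate both Csf1r calls were lost, at -0.58 (limma adjusted p = 0.461, the highest of its alternatives, which began at 1.44e-07) and -0.19 (limma adjusted p = 0.713, likewise, from 3.47e-05). Cd14, a lipopolysaccharide co-receptor, was higher by 2.81-fold and 1.84-fold. C1qb, a chain of complement C1q made by tissue macrophages and chosen after its values were seen, had means of 1995 ± 430 (SD, n = 3) and 1707 ± 709 in subcutaneous and intraabdominal adipocytes against 25.6 ± 8.17 and 492 ± 94.0 in stromo-vascular cells. The subcutaneous stromo-vascular mean lies under the added 40.2, and the log2 difference there was 4.94, from 3.51 to 6.67 over the alternatives, while the intraabdominal one was 1.65. A slightly dimmer probe set of C1qb did not follow, with differences of 0.95 (limma adjusted p = 0.0801) and 0.07 (limma adjusted p = 0.913). Between the stromo-vascular groups 9 of the 18 macrophage markers were lower and 2 higher in the subcutaneous depot, beside 6.45% and 6.49% of all probe sets. None of the 5 class II and invariant chain genes was called there, and a link between the lists was not tested.

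The 14 dendritic cell markers summed to 12471 to 16130 and 11133 to 13117 in subcutaneous and intraabdominal adipocytes and to 23498 to 24455 and 37088 to 38871 in stromo-vascular cells, and 2 of 9 tested were higher and 1 lower in adipocytes in each depot. The count higher is near the 23.5% and 22.4% of all probe sets, and that lower is below 29.4% and 29%. The median log2 difference of the 9 was 0.05 and 0.33. The lower sums in adipocytes, which follow the brightest markers, therefore do not hold for the list as a whole. With the actin covariate only 1 gene in each depot was called, as lower. Without both adipocyte arrays 1 these counts were 1 and 1 in the subcutaneous and 2 and 2 in the intraabdominal depot. The 12 pan-leukocyte markers summed to 6177 to 11860 and 5466 to 7501 in adipocytes and to 11661 to 12253 and 15324 to 19565 in stromo-vascular cells. The 16 B cell markers had the opposite order, at 19530 to 23802 and 31868 to 39910 in adipocytes and 5492 to 6985 and 5091 to 5770 in stromo-vascular cells. Much of that sum was Ighm, the heavy chain of immunoglobulin M, whose brightest probe set read 12925 ± 1421 (SD, n = 3) and 30561 ± 5127 in subcutaneous and intraabdominal adipocytes against 515 ± 31.7 and 358 ± 257. With the actin covariate the subcutaneous difference of Ighm was 3.78 and not called (limma adjusted p = 0.056, the highest of its alternatives, which began at 9.15e-10). Of 10 B cell markers tested 4 were higher in adipocytes in the subcutaneous depot, and 2 were higher and 1 lower in the intraabdominal depot. Of all probe sets 23.5% and 22.4% were called higher and 29.4% and 29% lower. With the actin covariate limma called none of the 10 in the subcutaneous depot, with 3 at an unadjusted p under 0.05, and 1, as higher, in the intraabdominal depot. Without both adipocyte arrays 1 the subcutaneous count was 2 higher and 1 lower of 9. Endothelial markers were higher in adipocytes for 10 of 11 genes in each depot, beside the same 23.5% and 22.4% of all probe sets. With the actin covariate limma called none of the 11 in the subcutaneous depot, with 2 at an unadjusted p under 0.05, and 4, as higher, in the intraabdominal depot. The part of these cell types in the class II differences was not tested.

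The genes most like the members over the 12 arrays were found by the Pearson correlation of their log2 signal with the mean of the members' standardised values. They were Cetn3 (r = 0.96), Tmx2, Ppdpf, Blmh, Ppp2r1b and Pgls (r = 0.95 to 0.94). Fraction is shared by all arrays of a kind, so such a correlation mostly follows the split between adipocytes and stromo-vascular cells.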

How the data were processed

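RNA of the 12 samples was hybridised to Affymetrix arrays (12488 probe sets). Each deposited value is a linear intensity, which the authors made with MAS5, per the submitters' processing notes. The MAS5 version is not given in the sources used here, and neither are detection calls. Arrays were used as deposited, and no arrays were identical. The 66 control probe sets were left out; of the others 10833 had 1 gene symbol, 396 several and 1193 none here. The deposited intensity was taken to log2 after adding 40.2, the 10th percentile of all values, and the lowest 30% of probe sets by mean were left out. All 12 arrays entered a linear model with a mean for each of the 4 groups, fitted in limma 3.58.1 in R 4.3.3 (eBayes with an intensity trend, 8 residual degrees of freedom), adjusted by Benjamini-Hochberg. A gene with several probe sets in a list was read by its brightest. The median SE of a difference was 0.24, and the number of arrays limits precision. Tested on simulated data with 200 of 8695 probe sets changed, the steps recovered 48% of 2-fold and 93% of 4-fold changes between fractions of the subcutaneous depot, 44% and 90% between adipocyte depots, 50% and 90% between stromo-vascular depots, and 21% and 78% for the interaction.

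The rule named every member probe set, pathway genes called in at least 1 comparison, up to 4 of the brightest markers of a cell type, and the 6 genes most like the members; the text takes part of these, chosen with their stability under the alternatives known. Genes outside it are H2-Ea, Ciita and Ifng, given as regulators or partners of the members, and C1qb. Members, lists, rule and alternatives were chosen with earlier results of these data known. Same-numbered arrays of different groups deviated together little over all tested probe sets (correlations of -0.09 to 0.11 over 18 pairs), and the main model did not pair them. Such correlations cannot tell whether arrays of one number share a pool, which is not stated. For all 5 members array 1 was the highest in both adipocyte groups. Alternatives changed the pseudocount, the filter, scaling, the variance model, the arrays used and covariates. Promoter sequences are from RefSeq; the H2-Ab1 and Cd74 promoters are not shown here.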

Additional observations from a re-analysis of the deposited data

Results flagged for a closer look

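None of the 5 class II and invariant chain genes showed a depot difference that differed between fractions by the limma interaction term. For 7 related genes named above it did, where 8.43% of all tested probe sets were called. These genes are listed because they were called, so their number is not set against that share. The value is the log2 depot difference, subcutaneous minus intraabdominal, in adipocytes, less the same difference in stromo-vascular cells. It was 3.28 ± 0.41 (SE, limma adjusted p = 0.000152) for C1qb and 1.49 ± 0.30 (limma adjusted p = 0.00606) for Lyz2, both of which had their highest stromo-vascular level in the intraabdominal depot. The dimmer C1qb probe set gave 0.88 (limma adjusted p = 0.46). It was -0.67 ± 0.15 (limma adjusted p = 0.0124) for H2-K1 and -0.74 ± 0.16 (limma adjusted p = 0.00907) for H2-D1, whose excess in the subcutaneous depot was the larger in stromo-vascular cells. It was -1.81 ± 0.38 (limma adjusted p = 0.0081) for Icam1, -0.85 ± 0.24 (limma adjusted p = 0.041) for Csf1r and -1.92 ± 0.48 (limma adjusted p = 0.0211) for Ighm. With the actin covariate no macrophage marker was called lower in the interaction and no B cell marker was called. The calls of Csf1r and Ighm as lower were thus lost. Groups of 3 arrays are too small for a test of single outlying arrays.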

How the results depend on the processing

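Of 588 alternatives over the 25 results of the members, 567 kept direction and call, 2 lost the call and 19 turned a difference that was not called. The 2 losses came with the actin ratio as a covariate, for Cd74 in the subcutaneous depot (4.21) and H2-DMa in the intraabdominal depot (1.55). That covariate turned H2-Ab1 to 0.51 and H2-DMa to 0.29 between adipocyte depots, H2-Ab1 to 0.12 between stromo-vascular depots, to 2.37 between subcutaneous fractions and to 0.39 in the interaction. Without both adipocyte arrays 1 H2-DMa turned to 0.036 between adipocyte depots and H2-Ab1 to -0.31 between intraabdominal fractions. With 1 array left out the differences between adipocyte depots ranged from -0.66 to 0.039 for H2-Aa, -0.26 to 0.075 for H2-Eb1 and -0.31 to 0.15 for H2-DMa, and those of H2-Ab1 from -0.25 to 0.13 between stromo-vascular depots, -0.87 to 0.13 between subcutaneous and -0.31 to 0.48 between intraabdominal fractions.

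Over 1407 alternatives for 59 results of other named genes, 35 lost the call and 4 turned. None of these 59 results is an interaction. These genes were selected with such results known: over the called differences of all 78 genes that the rule allows, 270 of 4132 alternatives lost the call and 5 turned, or 6.66%, against 2.72% for those named. The actin covariate turned Ctss to 0.19 and Lyz2 to 0.36 between subcutaneous fractions and Ciita to -1.01 between intraabdominal fractions, and with 1 array left out Ciita ranged from -0.66 to 0.27 between subcutaneous fractions. The count of called probe sets between adipocyte depots was 707, and 297 with only these groups fitted, 97 with the actin covariate, 330 without both adipocyte arrays 1 and 365 to 949 with 1 array left out, the lowest without intraabdominal adipocyte array 2 and 372 without array 1. Between stromo-vascular depots it was 1125, and 1952 with array weights, 1690 with only these groups and 765 to 1273 with 1 array left out. Between fractions it was 4595 in the subcutaneous and 4462 in the intraabdominal depot, 1058 and 2173 with the actin covariate, and 3957 to 4660 and 4001 to 4647 with 1 array left out. For the interaction it was 733, 403 with the covariate and 538 to 820 with 1 array left out. With the replicate block, the number of the array as a term, 595 probe sets were called between adipocyte depots, and the calls of the members did not change. Low signal limits H2-Aa in stromo-vascular cells, H2-Eb1 in intraabdominal stromo-vascular cells and the dim H2-DMa probe set.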
